A study of Homo sapiens with 56 samples.

Results

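The genes described here are 38 components of B-cell receptor signalling, the pathway through which a B cell reads contact with antigen. They were picked by gene symbol from a list of receptor chains, kinases, adaptors, phosphatases and downstream enzymes, and each of the 38 symbols matched 1 entry among the 21596 of the deposited table. Polyadenylated RNA was sequenced from cultures of mantle cell lymphoma, a cancer of B cells, as 56 libraries, and the study asked about drug resistance, naming BIRC5 and MCL-1 as targets. There were 13 libraries of Z138, 15 of JEKO-1, 13 of MINO-VR and 15 of MINO-P, each culture an established cell line or a subline of one, with no genetic change named in the labels. By treatment code, 11 libraries were IBR, 6 S63845, 6 BTZ, 6 CLF, 4 YM155 and 5 CON, read as untreated. Combinations were 8 of IBR_CLF, 2 of IBR_YM155, 1 of IBR_S63845, 2 of BTZ_YM155, 4 of BTZ_CLF and 1 of BTZ_S63845, and no dose or time was given. S63845 is an inhibitor of the MCL-1 protein and YM155 a suppressant of BIRC5 expression. The design text names a proteasome inhibitor and a BTK inhibitor only by class, so IBR is read as the BTK inhibitor and BTZ as the proteasome inhibitor, and the codes are kept.

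The receptor consists of a membrane immunoglobulin and the signalling chains CD79A and CD79B. When it is engaged, Src-family kinases such as LYN phosphorylate CD79A and CD79B, SYK binds to them and is activated, and SYK then acts through the adaptor BLNK on BTK and the phospholipase PLCG2. PLCG2 makes second messengers that release calcium through the ITPR channels, towards NFAT, and that activate protein kinase C, towards BCL10, MALT1 and NF-kB. Phosphatases such as PTPN6 (SHP-1) and INPP5D (SHIP1) damp the pathway. Many mantle cell lymphomas depend on it, which is the basis of treating them with BTK inhibitors.

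Several libraries stood apart. Mitochondrial transcripts took 1.907% to 3.917% of the CON libraries and 5.585% to 20.885% of the IBR libraries, and reached 67.556% in BTZ and 80.488% in BTZ_CLF. CPM (counts scaled to the same total in each library) share that fixed total, so the main counts below are also given after removal of the mitochondrial genes and under size factors. JEKO-1 BTZ replicate 3 held 9.921% mitochondrial transcripts against 67.556% and 67.503% in replicates 1 and 2. Replicate 3 of IBR in MINO-P and MINO-VR was deeper (16.354 M and 18.648 M reads, M for 1e6) than replicates 1 and 2 (7.886 M to 10.024 M) and lay above them for many members. Outside Z138, replicates 1 and 2 whose library names differ only by a final letter were much closer to each other (chi-square per degree of freedom 4.103 to 8.683 over 8 pairs) than other replicate pairs (90.49 to 364.7 over 10 pairs; 52.54 to 311.5 over the 5 such pairs of Z138), and no label says that replicates came from separate cultures, so the p-values measure only the spread between these libraries. The CON, BTZ, CLF and BTZ_CLF libraries of the MINO pair, 8 in all, formed a library series of their own, named HK, and the other 48 were named MCL. Within the MINO pair, IBR against CON and IBR_CLF against CLF thus also compare MCL with HK libraries. The same holds there for S63845 against CON, YM155 against CON and BTZ_YM155 against BTZ. Treatment and series cannot be told apart within that pair in these comparisons. The B-cell and lymphoma markers MS4A1, PAX5, CCND1, SOX11 and EBF1 were at 1 CPM or more in all 56 libraries, and the T-cell markers CD3E and CD2 stayed under 1 CPM in every library. The 8 listed B-cell and lymphoma markers together had 3270 to 4199 CPM in CON and 1079 to 4874 CPM in IBR, and the 8 T-cell markers 35.94 to 56.26 CPM in CON and 2.457 to 39.09 CPM in IBR. The part of either in the results below was not tested.

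In untreated cells the signalling chains were the most abundant members per length of transcript. The mean over the 4 lines' CON level, as CPM per kilobase of exon, was 228.5 for CD79A and 147.8 for CD79B. PTPRCAP, a small membrane protein bound to the phosphatase CD45, followed at 126.5 although it was almost absent from Z138. CSK, the kinase that restrains Src-family kinases, had 82.84, SYK 70.4, BTK 46.64, PTPN6 45.91, LYN 41.64 and PLCG2 14.88 CPM per kilobase. The lowest 3 were ITPR1 (2.163), the BTK relative TEC (2.004) and the Ras activator RASGRP1 (1.291).

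In IBR libraries 8 single members were lower than in CON, while the receptor chains and BTK itself did not pass the test. Of the 38 members, 8 fell and 0 rose at an adjusted p under 0.05 (limma, Benjamini-Hochberg over 16498 genes): PTPN6, NIBAN3, PTPRCAP, CD72, ITPR3, PIK3AP1, VAV2 and NFATC1. Among all genes tested, 6.95% were called in this comparison and 3.89% fell, against 21.1% of the members. The median log2 fold change was -0.737 over the members and 0.017 over all genes. Without mitochondrial genes 15 members fell (10.8% of genes called, 6.39% lower), and under size factors 14 (11.9% called, 6.6% lower), so the share over all genes was larger there too. With suffix pairs averaged 6 fell, and VAV2 (adjusted p = 0.0631) and NFATC1 (0.0715) lost their calls. In bulk RNA, fewer cells of a type and less RNA per cell cannot be told apart. In JEKO-1 and Z138 alone, which hold no HK library, 2 members fell (PTPN6 and NIBAN3).

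**Figure D1:**
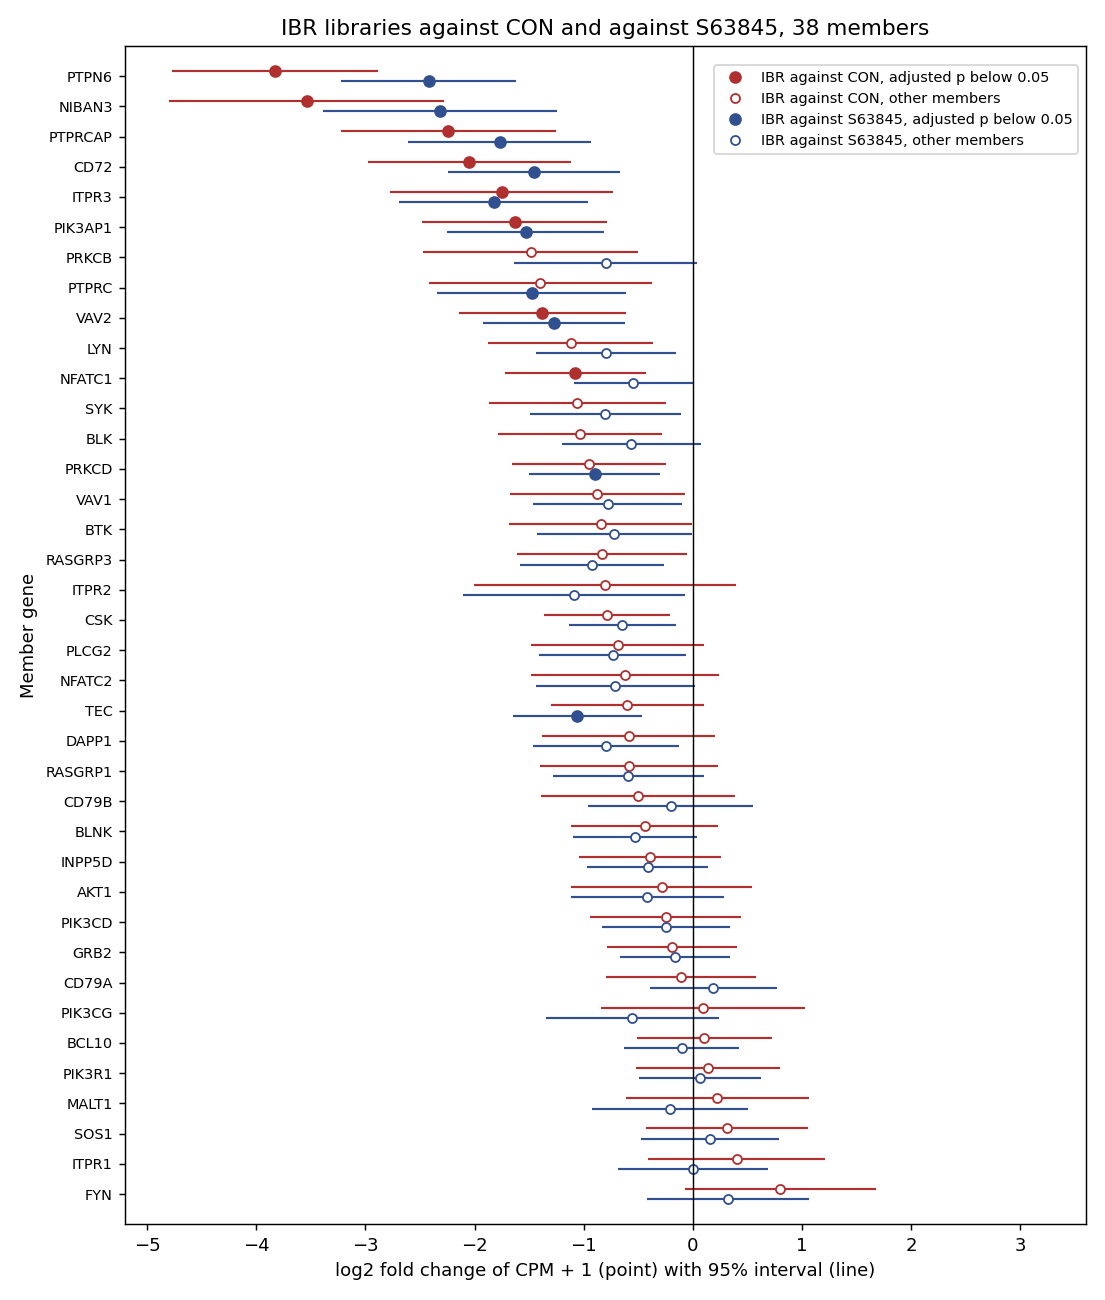
Log2 fold change of CPM + 1 for each of the 38 members (points) with its 95% interval (lines), for IBR against CON and IBR against S63845. Filled points passed an adjusted p of 0.05, and each filled point lies below 0. PTPN6 is lowest in both, at -3.83 and -2.42.

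PTPN6 (chromosome 12, 6946468 to 6961317), which encodes the phosphatase SHP-1 that shuts off receptor signals, fell most. It had 312 CPM in MINO-P CON, 362 in MINO-VR CON, 216 in JEKO-1 CON and 40.1 and 18.8 in Z138 CON. The 3 IBR libraries had 20.7, 31.8 and 62.3 CPM in MINO-P, 45.2, 44.7 and 119 in MINO-VR and 5.64, 10.9 and 2.82 in JEKO-1, and the 2 of Z138 had 1.68 and 0.316. In each line every IBR library lay below every CON library. The log2 fold change was -3.83 (limma adjusted p = 1.34e-06, SE 0.47), it ranged from -5.02 in JEKO-1 to -2.52 in MINO-VR, and the call held in 29 of 29 alternatives.

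NIBAN3 (chromosome 19, 17523301 to 17553840), also known as BCNP1, is a B-cell protein that becomes phosphorylated after receptor engagement. It had 518 CPM in MINO-P CON, 449 in MINO-VR CON, 129 in JEKO-1 CON and 7.49 and 1.26 in Z138 CON. IBR libraries ranged from 0 to 121 CPM with a median of 11.96, and within each line none reached its CON level. The log2 fold change was -3.54 (limma adjusted p = 4.02e-04, SE 0.63) and the call held in 29 of 29 alternatives. In Z138 the gene was near the detection limit, where 3 reads are worth 0.139 to 0.544 CPM over the 56 libraries.

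The promoters of these members are shown because the genes fell together, with the stretch from 250 bases before to 50 after an annotated start, as listed by RefSeq on GRCh38.p14. Capitals mark matches, on either strand, to any of 6 motifs: GAGGAAGT (ETS and PU.1), ATTTGCAT (octamer), CCCNNGGG (EBF), GGNNTTTCC (NF-kB), CAGGTG (E protein) and TGACNNNGC (antioxidant response). PTPN6 has a pair of listed starts, at chr12:6946327-6946626 and chr12:6951106-6951405, NIBAN3 has 3 and is shown at the first, chr19:17523051-17523350 and ITPR3 at chr6:33621072-33621371, each on the plus strand.
PTPN6 first start: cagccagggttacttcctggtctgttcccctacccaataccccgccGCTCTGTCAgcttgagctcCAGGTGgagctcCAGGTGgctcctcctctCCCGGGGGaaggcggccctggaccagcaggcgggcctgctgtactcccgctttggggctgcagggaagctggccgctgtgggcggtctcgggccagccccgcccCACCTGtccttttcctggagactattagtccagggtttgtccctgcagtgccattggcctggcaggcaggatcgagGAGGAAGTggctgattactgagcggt
PTPN6 second start: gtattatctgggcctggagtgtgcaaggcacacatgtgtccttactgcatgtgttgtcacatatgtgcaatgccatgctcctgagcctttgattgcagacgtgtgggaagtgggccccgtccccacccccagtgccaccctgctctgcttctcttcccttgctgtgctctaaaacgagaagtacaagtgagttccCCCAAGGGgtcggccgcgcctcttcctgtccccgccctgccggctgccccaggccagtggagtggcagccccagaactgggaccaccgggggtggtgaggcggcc
NIBAN3: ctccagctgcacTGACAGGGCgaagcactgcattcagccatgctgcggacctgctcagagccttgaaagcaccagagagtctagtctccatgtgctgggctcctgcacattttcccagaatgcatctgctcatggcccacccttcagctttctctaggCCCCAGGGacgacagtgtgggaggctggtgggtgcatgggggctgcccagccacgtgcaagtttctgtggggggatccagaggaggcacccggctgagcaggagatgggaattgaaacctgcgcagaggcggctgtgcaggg
ITPR3: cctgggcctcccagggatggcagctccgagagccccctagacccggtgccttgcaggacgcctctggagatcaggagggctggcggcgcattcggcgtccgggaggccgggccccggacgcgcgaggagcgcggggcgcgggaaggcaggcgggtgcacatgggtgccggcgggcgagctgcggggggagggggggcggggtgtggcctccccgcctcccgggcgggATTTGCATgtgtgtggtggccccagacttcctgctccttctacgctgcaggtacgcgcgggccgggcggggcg
The first PTPN6 promoter held 6 matches, with 3 to the E-protein motif, 1 each to the ETS and PU.1 and the antioxidant response motif, and 1 to the EBF motif, which was the only one matched in the second. The NIBAN3 promoter shown held 2 matches, 1 to the EBF and 1 to the antioxidant response motif, whereas each of the other 2, which overlap, held 6 (3 EBF, 2 E protein and 1 antioxidant response). The ITPR3 promoter held 1 match, to the octamer, and the CD72 promoter (chr9:35618364-35618663, minus strand) held 0. PTPRCAP was not among the 33 members with a listed promoter. Over those 33, the ETS and PU.1 motif was present for 7 members (21.2%, against 3.15% of 27305 genes and 2.59% of 35116 promoters) and the E-protein motif for 18 (54.5%, against 24.1% of genes and 20.6% of promoters). The EBF motif was present for 13 (39.4%, against 21.9% and 19.1%), the NF-kB motif for 5 (15.2%, against 7.61% and 6.26%), the octamer for 2 (6.06%, against 2.19% and 1.77%) and the antioxidant response motif for 5 (15.2%, against 16.1% and 13.3%). These are matches of letters, with no measure of binding.

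Among the other inhibitory and phosphatase genes, PTPRCAP and CD72 fell. PTPRCAP had 229 CPM in MINO-P CON, 265 in MINO-VR CON and 158 in JEKO-1 CON, and 0.562 and 0.0897 in Z138 CON. IBR libraries had 117 to 152 CPM in MINO-P, 73.3 to 102 in MINO-VR and 1.03 to 4.66 in JEKO-1. The 3 lines that express it were each separated from CON, and the log2 difference was -5.53 in JEKO-1 against -0.82 in MINO-P and -1.64 in MINO-VR. The fitted value of -2.24 (SE 0.49, limma adjusted p = 0.00317) became -0.63 (adjusted p = 0.244) when JEKO-1 was left out. All 1292 exon bases of PTPRCAP lie within annotated exons of CORO1B on the same strand, so its values are uncertain. CORO1B had 8.354 to 19.94 CPM in the Z138 libraries, where PTPRCAP did not exceed 0.896.

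CD72, an inhibitory coreceptor that recruits PTPN6, had 71.3 CPM in MINO-P CON, 47.5 in MINO-VR CON, 90.4 in JEKO-1 CON and 31.0 and 17.5 in Z138 CON. The 11 IBR libraries had 4.21 to 25.3 CPM with a median of 9.96, and each line's IBR libraries lay below its CON libraries. The log2 fold change was -2.05 (limma adjusted p = 0.00432, SE 0.46). PTPRC (CD45), the phosphatase that activates Src-family kinases, did not pass against CON at -1.40 (adjusted p = 0.0834), and INPP5D was at -0.39 (adjusted p = 0.533). Exons of genes on the opposite strand cover 19.5% of the exon bases of CD72 and 10.4% of those of ITPR3, and the use of strand in counting was not given in the sources used here.

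**Figure D2:**
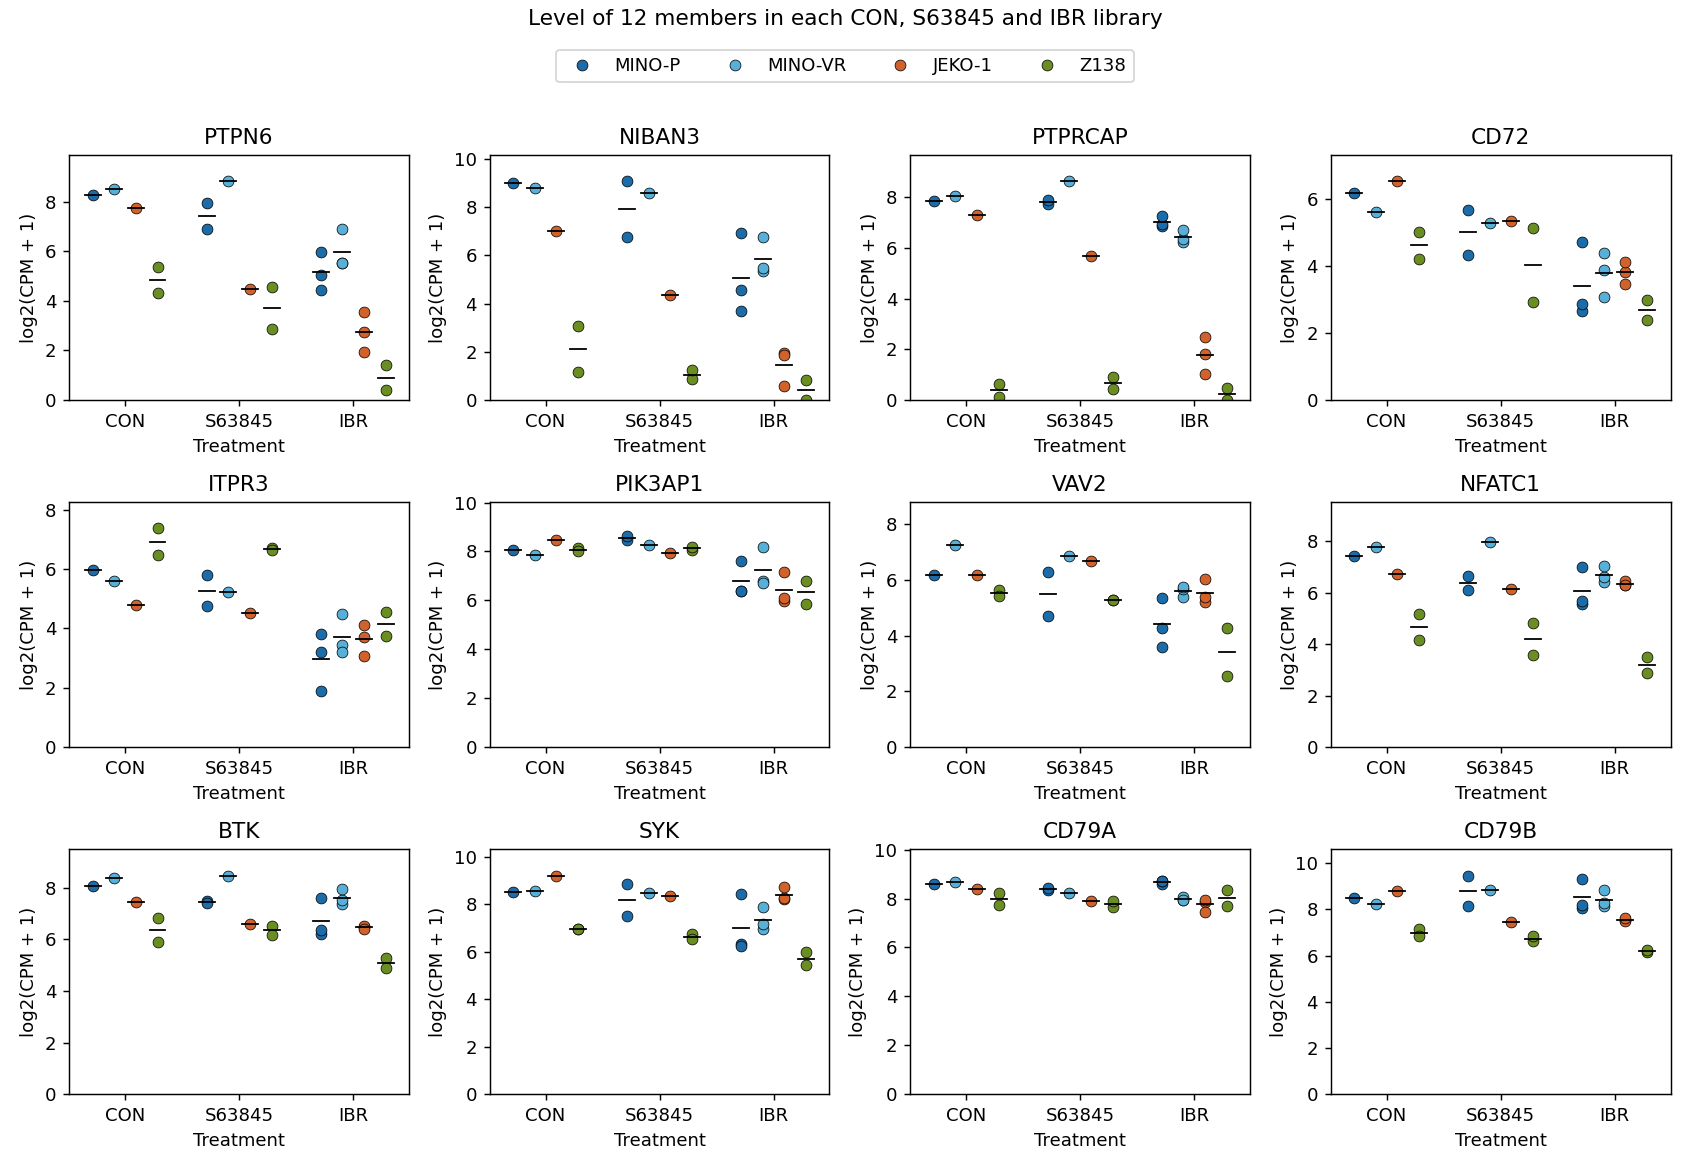
Log2(CPM + 1) of 12 members in each CON, S63845 and IBR library, coloured by line, with a bar at the mean of each line and treatment. PTPN6, NIBAN3, CD72 and ITPR3 sit lower in IBR than in CON in each line. CD79A overlaps between the groups over all lines, but is lower in IBR in MINO-VR and JEKO-1 and higher in MINO-P.

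ITPR3, a calcium channel of the endoplasmic reticulum, fell. It had 61.1 CPM in MINO-P CON, 47.8 in MINO-VR CON, 26.4 in JEKO-1 CON and 87.8 and 164 in Z138 CON. IBR libraries had 2.73 to 22.6 CPM with a median of 12.2, below CON in each line, and the log2 fold change was -1.75 (limma adjusted p = 0.0263, SE 0.51). Z138 CON held the most ITPR3 and the least PTPN6, PTPRCAP and NIBAN3 of the 4 lines. The call was lost in 7 of 29 alternatives, with adjusted p-values from 4.03e-04 to 0.2 over all of them. The channel genes ITPR2 (-0.80, adjusted p = 0.476) and ITPR1 (0.40, adjusted p = 0.627) did not pass.

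NFATC1, a transcription factor that calcium sends to the nucleus, had 172 CPM in MINO-P CON, 219 in MINO-VR CON, 104 in JEKO-1 CON and 34.6 and 16.7 in Z138 CON. IBR libraries had 6.37 to 131 CPM with a median of 77.0, below CON within each line, at -1.08 on the log2 scale (SE 0.32, limma adjusted p = 0.0311). The separation was narrow in JEKO-1, where IBR libraries had 76.7 to 86.8 CPM. The call was lost in 7 of 29 alternatives, among them size factors (adjusted p = 0.0564) and leaving out Z138 CON replicate 1 (0.117). NFATC2 was at -0.62 (adjusted p = 0.434).

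Of the adaptors and exchange factors, PIK3AP1 and VAV2 fell. PIK3AP1 (BCAP), which carries PI3-kinase to the membrane, had 231 to 355 CPM in the 5 CON libraries. IBR libraries had 57.0 to 287 CPM with a median of 102, and they were below CON in each line except MINO-VR, where replicate 3 had 287 against 231 in CON. Its log2 fold change was -1.63 (limma adjusted p = 0.0131, SE 0.42), and it lost its call without the 1 JEKO-1 CON library (-1.45, adjusted p = 0.0583). VAV2, a guanine nucleotide exchange factor, had 41.4 to 149 CPM in CON and 4.80 to 64.3 in IBR (-1.38, SE 0.38, limma adjusted p = 0.0199), with every IBR library below CON in each line. It lost its call in 6 of 29 alternatives, among them leaving out Z138 CON replicate 1 (adjusted p = 0.072) or replicate 2. The related VAV1 was at -0.88 (adjusted p = 0.188), the adaptors BLNK, GRB2 and DAPP1 at -0.44, -0.19 and -0.59, and the Ras exchange factor SOS1 at 0.31, with none of these called.

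The receptor chains, which carry the signalling motifs, did not pass the test. CD79A had 209 to 403 CPM in CON and 174 to 424 in IBR, a log2 fold change of -0.11 (95% interval -0.79 to 0.58, limma adjusted p = 0.902). CD79B had 115 to 440 CPM in CON and 71.1 to 632 in IBR, at -0.50 (interval -1.39 to 0.39, adjusted p = 0.568). Their ranges overlapped across all libraries. By line, CD79A was lower in IBR in JEKO-1 (332.2 CPM in CON against 174.2 to 245.7) and MINO-VR (402.9 against 245.0 to 263.1). It was higher in MINO-P (385.6 against 388.9 to 424.4) and overlapped in Z138. JEKO-1, MINO-VR and MINO-P have 1 CON library each. Within JEKO-1 CD79B was 440 CPM in CON against 177 to 197 in IBR. In Z138 it was also separated, at 139.4 and 114.6 CPM in CON against 71.1 and 73.95 in IBR. In the MINO pair the CON values of CD79B (360.7 and 301.8 CPM) lay within the IBR ranges (262.8 to 632.4 and 284.6 to 457.5).

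None of the 7 tyrosine kinases passed the test on the deposited scale. BTK, the target named by the drug class, had 264 CPM in MINO-P CON, 331 in MINO-VR CON, 172 in JEKO-1 CON and 114 and 59.4 in Z138 CON. IBR libraries had 28.6 to 245 CPM, below CON in each line, with a log2 fold change of -0.85 (interval -1.69 to -0.0047, limma adjusted p = 0.234). SYK, at 124 to 595 CPM in CON and 42.0 to 429 in IBR, was at -1.06 (adjusted p = 0.102), and it passed without mitochondrial genes (0.0202) and under size factors (0.0118). LYN, at 67.1 to 429 CPM in CON and 30.4 to 149 in IBR, was at -1.12 (adjusted p = 0.0593), and it also passed with these scalings (0.00963 and 0.00958). BLK was at -1.03 (0.08), CSK at -0.79 (0.0857), TEC at -0.60 (0.324) and FYN at 0.80 (0.286).

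PLCG2 was at -0.69 (interval -1.48 to 0.11, limma adjusted p = 0.319), with 88.4 to 271 CPM in CON and 62.1 to 262 in IBR. MINO-P IBR replicates 1 and 2 had 62.3 and 65.0 CPM of PLCG2 and replicate 3 had 248, against 218 in CON. The protein kinase C genes PRKCB (-1.49, adjusted p = 0.0535) and PRKCD (-0.95, 0.0916) lay just past the threshold and passed with mitochondrial genes left out. BCL10 (0.11), MALT1 (0.23), PIK3CD (-0.25), PIK3R1 (0.14), PIK3CG (0.09), AKT1 (-0.29), RASGRP1 (-0.59) and RASGRP3 (-0.83) were not called.

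Counted by direction, 26 of the 38 members had a lower mean in IBR than in CON in each of the 4 lines, against 26.8% of 16498 genes, and 1, SOS1, had a higher mean in each. For 13 members every IBR library lay below every CON library of its line in all 4 lines (BTK, CD72, CSK, GRB2, ITPR3, LYN, NFATC1, NIBAN3, PRKCD, PTPN6, RASGRP1, SYK and VAV2), against 10% of genes. These counts were 24 and 9 with mitochondrial genes left out, against 20.9% and 7.45% of 17203 genes. Some of the 13 rest on levels near the detection limit. RASGRP1 had 1.742 CPM in MINO-P CON against 0 to 1.016 in IBR, and 3.226 in MINO-VR CON against 0 to 0.8859. NIBAN3 in Z138 had 7.491 and 1.256 CPM in CON against 0 and 0.7895 in IBR. Because 3 of the lines have 1 CON library each, such a separation can rest on 1 value. The counts by direction were made without a series term. In the MINO pair the CON libraries are HK and the IBR libraries MCL, so treatment and series cannot be told apart there.

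**Figure D3:**
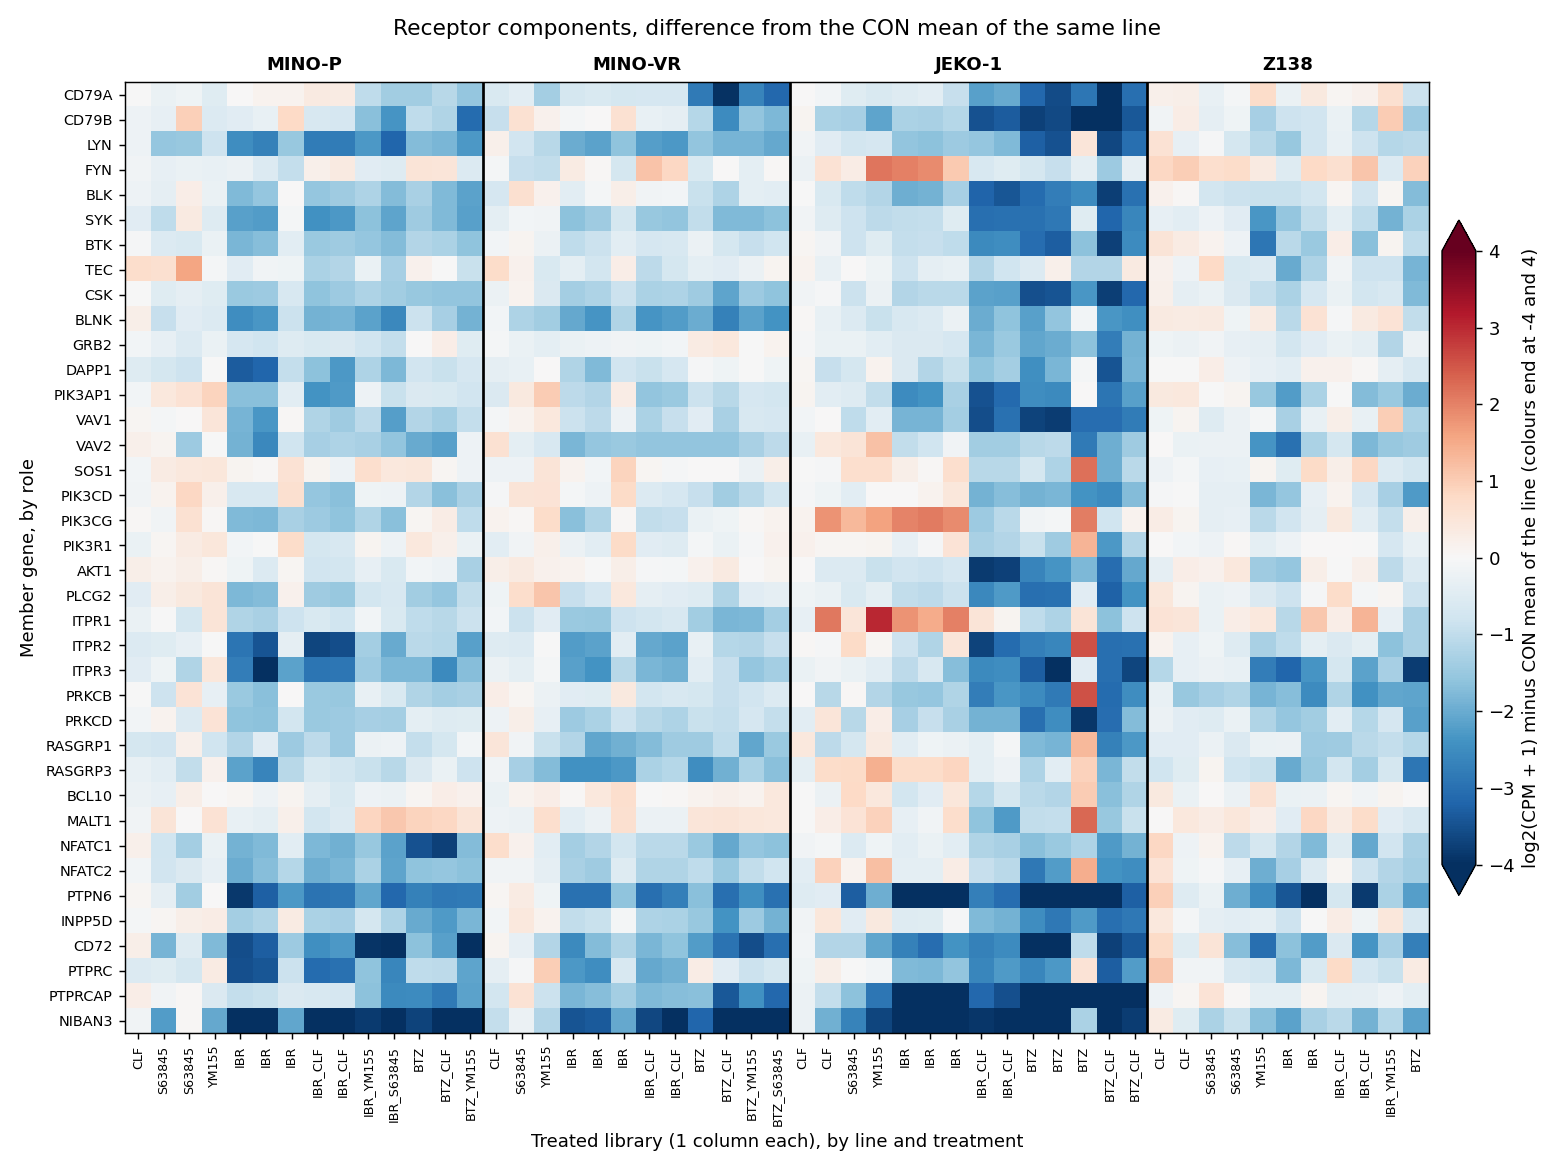
Difference of log2(CPM + 1) between each treated library (columns, by line and treatment) and the mean CON level of its line, for the 38 members (rows, by role). PTPN6 and NIBAN3 are blue in each IBR and BTZ column, and JEKO-1 BTZ replicate 3 (LYN 177 CPM against 12.4 and 10.3) departs from its fellow replicates.

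Some members went the other way in JEKO-1. FYN, a Src-family kinase, had 13.4 CPM in JEKO-1 CON and 57.6, 52.4 and 29.01 in JEKO-1 IBR, whereas MINO-P had a log2 difference of -0.57. PIK3CG, a PI3-kinase catalytic subunit, had 25.8 CPM in JEKO-1 CON and 105, 113 and 99.3 in IBR, a log2 difference of 1.99 against -1.62 in MINO-P. ITPR1 (1.76 against -1.11) and the Ras activator RASGRP3 (0.78 against -1.96) showed the same pattern. A CLF library of JEKO-1, replicate 2, also had 92.4 CPM of PIK3CG and 71.6 of ITPR1, above the 1 CON library. The MINO-P differences set MCL against HK libraries, whereas those of JEKO-1 lie within MCL. In Z138, also within MCL, PIK3CG had 63.55 and 49.62 CPM in CON and 32.51 and 43.26 in IBR. RASGRP3 was lower there too (24.45 and 34.95 in IBR against 91.1 and 114.5), while FYN and ITPR1 overlapped. Members for this paragraph were chosen after their values were seen.

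The difference between JEKO-1 and Z138 in the IBR effect was tested in a model of those 28 libraries, where 0% of 15719 genes and 0 members passed (659 genes and 4 members at an unadjusted p under 0.05). One of these members, PTPRCAP, did not exceed 0.896 CPM in Z138 and had no level there from which to fall, so its difference carries no information on the effect. RASGRP3 was at 2.54 (limma adjusted p = 0.841) and PIK3CG at 2.56 (0.935). In Z138 fitted alone, with 2 CON and 2 IBR libraries, 0% of 14028 genes and 0 of 37 members tested passed, while 2731 genes and 17 members had an unadjusted p under 0.05. The Z138 values were -3.93 for PTPN6 (SE 1.02, limma adjusted p = 0.114), -2.77 for ITPR3 (0.104), -1.29 for BTK (0.252), -1.26 for SYK (0.106), -1.15 for LYN (0.207), -0.79 for CD79B (0.226), -0.43 for PLCG2 (0.575) and 0.05 for CD79A (0.952). Z138 has 2 libraries in each of these groups, which limits the precision of this comparison.

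Against S63845, whose libraries share the MCL series with the IBR libraries in each line, 10 single members were lower in IBR. Of the 38 members 10 fell and 0 rose (8.86% of genes called and 6.41% lower, against 26.3% of the members). The median log2 fold change was -0.714 over the members and -0.073 over all genes, while without mitochondrial genes 15 members fell (13.4% of genes called, 9.18% lower), and under size factors 12 (14.2% called, 7.88% lower). PTPN6 had 245 and 118 CPM in the S63845 libraries of MINO-P, 452 in MINO-VR, 21.3 in JEKO-1 and 22.9 and 6.31 in Z138. Each line's IBR libraries were lower, at -2.42 on the log2 scale (SE 0.40, limma adjusted p = 1.57e-04). The other values were -2.32 for NIBAN3 (adjusted p = 0.00385), -1.83 for ITPR3 (0.00478), -1.77 for PTPRCAP (0.00469), -1.53 for PIK3AP1 (0.00447), -1.46 for CD72 (0.0134) and -1.27 for VAV2 (0.00861). With suffix pairs averaged 7 members fell, and CD72 lost its call (-1.31, adjusted p = 0.0641), as it did without Z138 S63845 replicate 1 (-1.24). NFATC1 did not pass (-0.54, 0.212). In JEKO-1 and Z138 alone 0 members passed, and without JEKO-1 20 fell. The share of all genes called was not recorded for these fits, so their counts cannot be set against all genes.

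PTPRC, TEC and PRKCD passed against S63845. PTPRC had 313 and 267 CPM in MINO-P S63845, 350 in MINO-VR, 204 in JEKO-1 and 31.0 and 21.7 in Z138. IBR had 37.7, 40.0 and 241 CPM in MINO-P, 73.0, 63.4 and 229 in MINO-VR, 58.1 to 69.0 in JEKO-1 and 9.24 and 22.4 in Z138 (log2 fold change -1.48, SE 0.43, limma adjusted p = 0.0222), with an overlap in Z138 and a call lost in 7 of 30 alternatives. The replicates 3 of MINO-P and MINO-VR were far above the other IBR libraries of their lines. TEC had 1.32 to 28.2 CPM in S63845 and 0.282 to 10.5 in IBR (-1.06, SE 0.30, limma adjusted p = 0.0168), and in JEKO-1 its level did not exceed 1.95 CPM in any library. The call of TEC was lost in 5 of 29 alternatives. PRKCD, a protein kinase C that can restrain B-cell activation, had 15.8 to 69.4 CPM in S63845 and 13.4 to 32.5 in IBR (-0.90, SE 0.30, limma adjusted p = 0.0484). It lost its call in 19 of 30 alternatives.

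The remaining genes of the rule did not pass against S63845. BTK was at -0.72 (limma adjusted p = 0.206), SYK at -0.80 (0.136), LYN at -0.80 (0.11), PLCG2 at -0.73 (0.165), CD79A at 0.19 (0.747) and CD79B at -0.20 (0.795). By direction, 21 members had a lower mean in IBR in each line (18.9% of genes), and for 4 every IBR library was below every S63845 library in each line (CSK, ITPR3, PIK3AP1 and PTPN6, against 4.91% of genes). Whether the size of the IBR effect against S63845 differed between lines was tested over 17 libraries: 0 members passed (0.151% of genes called, and 3 members at an unadjusted p under 0.05). PTPRCAP is 1 of these 3, and its absence from Z138 enters that test.

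Genes around the members were counted from lists of known pathway genes. Of 53 tested further genes of the pathway, 7 fell and 1 rose in IBR against CON (15.1% called, against 6.95% of all genes), with a median log2 fold change of -0.206 against 0.017 over all genes. LCK, a Src-family kinase, was at -2.45 (limma adjusted p = 5.13e-04), VAV3 at -1.65 (0.018) and LAT2, an adaptor, at -1.59 (0.0067), while SOS2 was the 1 that rose, at 0.97 (0.0454). Of 17 tested coreceptors 4 fell (23.5%, against 3.89% of all genes that fell), among them FCRL5 at -3.10 (6.29e-04), CD22 at -2.64 (0.00234) and SIGLEC10 at -1.10 (0.0481). Of 18 genes known to be induced by the receptor 9 fell and 0 rose (50%, against 3.89%), a median of -1.559, among them EGR3 at -3.41 (0.00206), EGR2 at -3.24 (2.75e-04), NR4A1 at -2.60 (0.00394), CD83 at -2.53 (5.70e-04) and CD69 at -2.24 (8.90e-04). Against S63845 the counts of genes that fell were 8 of 53, 8 of 17 and 11 of 18, with 0 that rose in each, against 6.41% of all genes lower and 8.86% called.

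Where IBR was added to CLF, 16 of 38 members fell and 0 rose (4.93% of genes called and 4.02% lower, against 42.1% of the members). The 5 largest were NIBAN3 at -3.14 (SE 0.61, limma adjusted p = 0.00248), PTPN6 at -3.02 (SE 0.46, 2.27e-04), PIK3AP1 at -2.30 (SE 0.41, 0.00117), CD72 at -1.77 (SE 0.45, 0.0177) and PTPRCAP at -1.65 (SE 0.48, 0.0342). PTPN6 had 331 CPM in MINO-P CLF, 387 in MINO-VR, 151 and 156 in JEKO-1 and 54.3 and 18.8 in Z138. IBR_CLF libraries had 39.1 and 41.1, 44.3 and 53.7, 31.8 and 25.5, and 16.5 and 1.02 CPM in the same order of lines, below CLF in each. BTK (-1.33, adjusted p = 0.0454), SYK (-1.46, 0.0226) and LYN (-1.25, 0.036) were also called, whereas CD79A (-0.49, 0.417), CD79B (-1.21, 0.0859) and PLCG2 (-0.98, 0.119) were not. The count of 16 became 4 with suffix pairs averaged, 5 with line and treatment averaged and 0 in JEKO-1 and Z138 alone. In the MINO pair the CLF libraries are HK and the IBR_CLF libraries MCL. Mitochondrial transcripts reached 60.666% in a JEKO-1 IBR_CLF library, and their part in the count of 16 was not tested beyond the scalings: 13 members fell without mitochondrial genes (4.15% of genes lower), 14 under size factors (4.08% lower) and 6 with JEKO-1 left out. Leaving out a JEKO-1 CLF or IBR_CLF library left 5 called, leaving out Z138 CLF replicate 1 left 7, and leaving out Z138 IBR_CLF replicate 1 gave 25.

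IBR_CLF against IBR gave 0 called members (0.0121% of genes, 8 members at an unadjusted p under 0.05), of which PTPN6 was higher (0.89, limma adjusted p = 0.488) and PIK3CD lower (-0.91, 0.309). IBR_YM155 against YM155, with 2 combination libraries, gave 0 (0% of genes, 0 members and 310 genes at an unadjusted p under 0.05), with a member median of -0.524 against -0.201 over all genes. Without mitochondrial genes these medians were -0.259 and -0.016, and under size factors -0.194 and 0.025, and 1 of the 2 combination libraries had 25.471% mitochondrial transcripts.

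In BTZ libraries 24 receptor components were lower than in CON, and these included the receptor chains. Of the 38 members 24 fell and 0 rose (24% of genes called and 22.3% lower, against 63.2% of the members), with a median log2 fold change of -1.419 against -0.421 over all genes. Without mitochondrial genes the medians were -1.068 over the members and -0.166 over all genes, and under size factors -0.899 and -0.067. In the first 21 members fell (13.8% of genes lower), and in the second 19 fell (11.3% lower) and 1 rose (MALT1, 0.85), while MALT1 was at 0.31 and not called on the deposited scale (adjusted p = 0.639). The 5 largest on the deposited scale were PTPN6 at -2.92 (SE 0.48, limma adjusted p = 1.68e-05), NIBAN3 at -2.86 (SE 0.64, 8.43e-04), CD72 at -2.47 (SE 0.47, 1.37e-04), ITPR3 at -2.40 (SE 0.52, 5.68e-04) and PTPRCAP at -2.32 (SE 0.50, 5.67e-04). The B-cell and lymphoma markers together had 395.7 to 2997 CPM in BTZ against 3270 to 4199 in CON. Their part in this count was not tested.

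CD79A had 147 CPM in MINO-P BTZ, 55.6 in MINO-VR, 36.7, 26.8 and 43.8 in JEKO-1 and 137.7 in Z138. Each value was below the CON libraries of its line (209 to 403 CPM), at -2.15 on the log2 scale (SE 0.35, limma adjusted p = 1.48e-05). CD79B had 178, 136, 32.1, 34.9, 10.2 and 45.1 CPM in the same order and was also below CON in each line (-2.27, SE 0.45, limma adjusted p = 2.16e-04). With size factors the values were -1.60 for CD79A and -1.73 for CD79B, and both passed.

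LYN and PTPRC show how far apart the JEKO-1 BTZ libraries were. LYN had 12.4, 10.3 and 177 CPM in replicates 1, 2 and 3, against 126 in JEKO-1 CON, and PTPRC had 32.7, 41.1 and 300 against 206. The fitted values were -1.61 for LYN (limma adjusted p = 0.00168), -1.52 for BTK (0.00688), -1.55 for SYK (0.00454), -1.26 for PLCG2 (0.0173) and -0.56 for PTPRC (0.462). The count over leaving out each library in turn was 20 to 28.

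**Figure D4:**
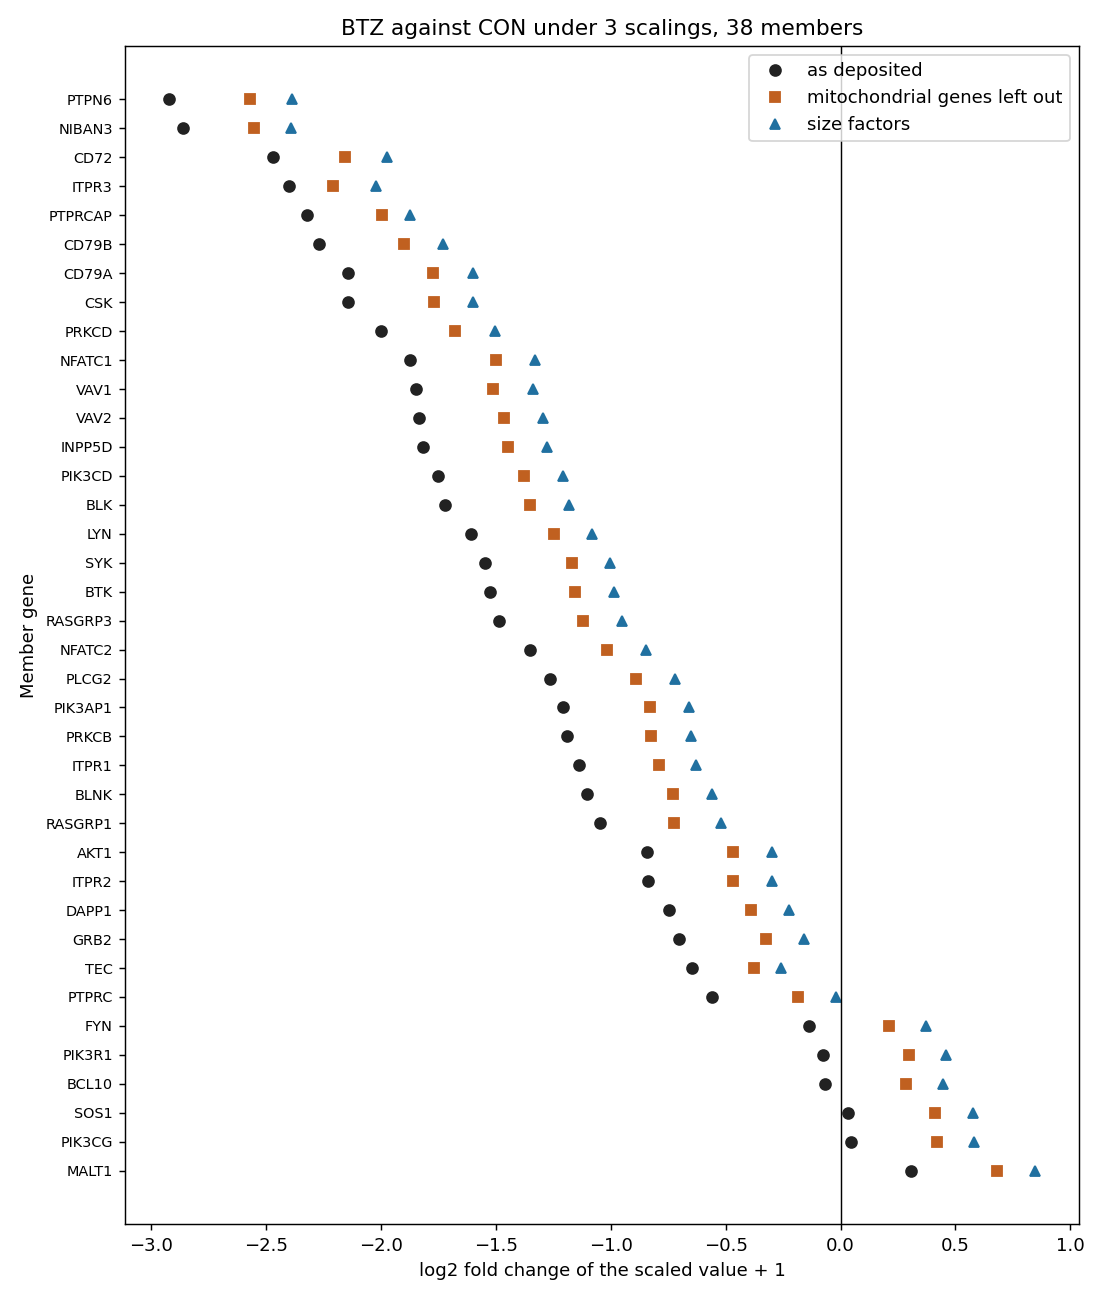
Log2 fold change of the 38 members in BTZ against CON on the deposited scale, without mitochondrial genes and under size factors. Each member moves to the right by a similar step from the deposited scale to the size factors, and MALT1 ends at 0.85.

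No member passed in the 3 agents given without IBR or BTZ. S63845 against CON gave 0 called members (0% of genes, 414 genes and 1 member at an unadjusted p under 0.05), and that member was PTPN6 at -1.41 (SE 0.51, unadjusted p = 0.00823). CLF against CON gave 0 (0% of genes, 58 genes and 0 members at an unadjusted p under 0.05). YM155 against CON gave 0 (0.273% of genes, 6 members at an unadjusted p under 0.05), with CD72 at -1.74 (limma adjusted p = 0.144), NIBAN3 at -2.06 (0.219) and ITPR1 at 1.41 (0.189) the largest of these. With size factors 1 member passed for YM155. BTZ_CLF against BTZ gave 0 (0% of genes, 986 genes and 3 members at an unadjusted p under 0.05) and BTZ_YM155 against BTZ gave 0 (0.921% of genes, 6 members), with PRKCD highest at 1.65 (limma adjusted p = 0.104). All BTZ_YM155 libraries are MCL libraries of the MINO pair, whose BTZ libraries are HK. In that pair S63845 and YM155 against CON also set MCL against HK libraries. Treatment and series cannot be told apart there. The single libraries of IBR_S63845 and BTZ_S63845 entered the model without a comparison of their own.

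The lines differed in most members: 30 of 38 had a difference between the 4 lines (limma F-test), in a setting where 68.5% of all genes did. PTPRCAP had medians of 145 CPM in MINO-P, 81.6 in MINO-VR, 8.54 in JEKO-1 and 0.122 in Z138 (limma adjusted p = 2.78e-24). NFATC1 had 51.5, 103, 70.3 and 14.3 CPM in the same order (6.19e-17). PRKCB, a protein kinase C, had 87.1, 75.9, 38.1 and 4.41 (7.13e-16). NIBAN3 had 35.2, 43.2, 7.77 and 0.984 (9.59e-16) and, like those 3, had its lowest median in Z138. The 5 with the smallest p-values also include PTPN6 (6.62e-15). All line medians given here pool the treatments of a line. In CON, PTPRCAP had 229.5 CPM in MINO-P, 265.4 in MINO-VR and 158.4 in JEKO-1. NIBAN3 had 518.0, 449.0 and 128.6 CPM in the same CON libraries, so the JEKO-1 medians lie far below its CON level.

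RASGRP1, TEC and FYN were chosen after their values were seen. RASGRP1, a Ras activator, was lowest in the MINO pair, with medians of 0.683 and 0.594 CPM in MINO-P and MINO-VR, 13.9 in JEKO-1 and 5.59 in Z138 (limma adjusted p = 4.44e-13). TEC had 7.79 CPM in MINO-P, 6.41 in MINO-VR, 0.833 in JEKO-1 and 8.43 in Z138 (1.48e-12). FYN was lowest in JEKO-1, at a median of 11.3 CPM against 40.6 to 62.1 in the other lines (2.44e-05). The members that did not pass were BLNK, GRB2, ITPR2, MALT1, PIK3AP1, PIK3CG, SOS1 and VAV1.

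**Figure D5:**
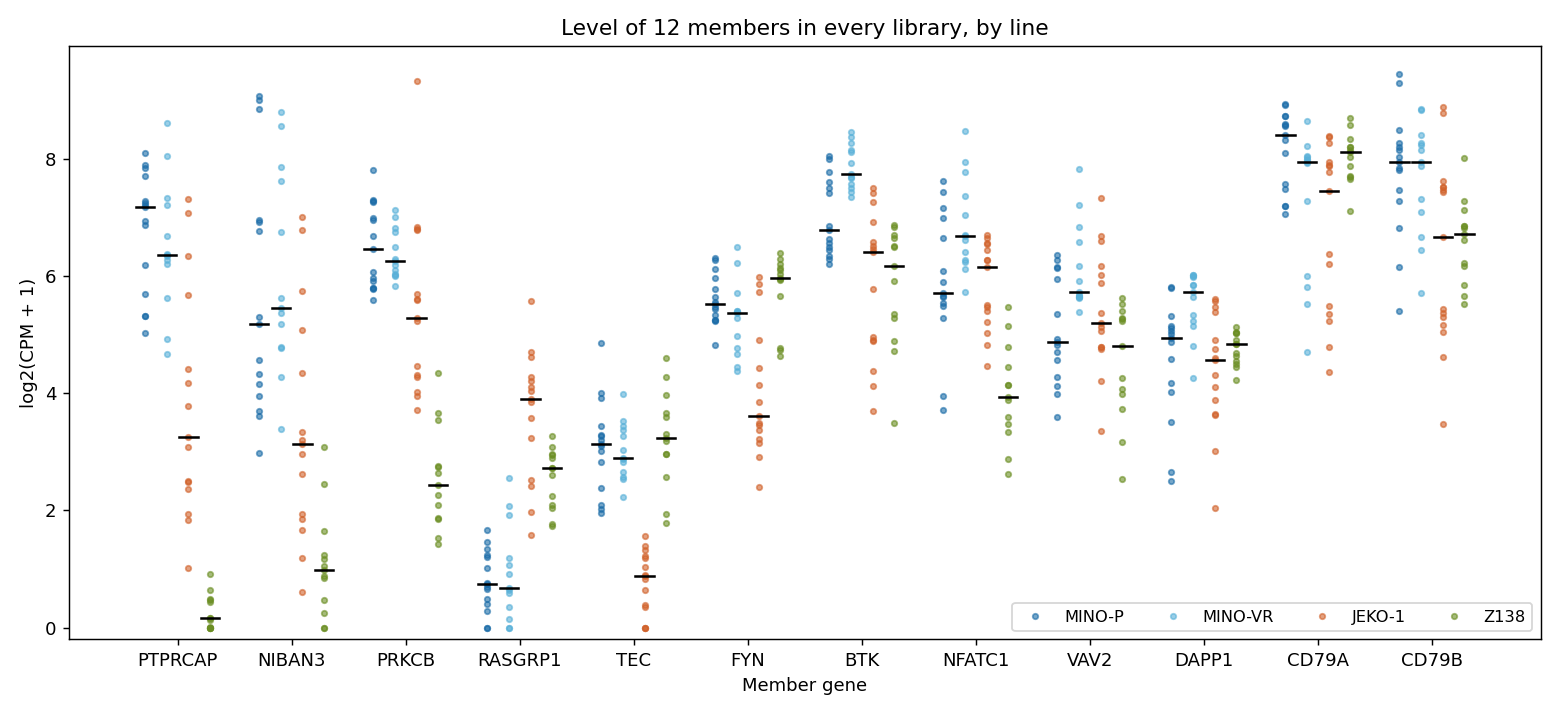
Log2(CPM + 1) of 12 members in each of the 56 libraries (points) by line, with a bar at the line's median. PTPRCAP, NIBAN3 and PRKCB are lowest in Z138, RASGRP1 is lowest in MINO-P and MINO-VR, and TEC is lowest in JEKO-1.

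Within the MINO pair, 5 of 38 members differed (5.57% of genes called, against 13.2% of the members). In MINO-VR, VAV2 was higher by 1.07 (SE 0.25, limma adjusted p = 0.00399), NFATC1 by 1.02 (SE 0.21, 9.89e-04), BTK by 0.90 (SE 0.28, 0.0405) and DAPP1, an adaptor that binds PI3-kinase products, by 0.88 (SE 0.26, 0.0306). CD79A was lower (-0.81, SE 0.23, limma adjusted p = 0.0193). BTK had 163 to 354 CPM over the 13 MINO-VR libraries with a median of 214 and 73.0 to 264 over the 15 MINO-P libraries with a median of 110, so the ranges overlapped. CD79A had medians of 247 and 339 CPM in MINO-VR and MINO-P, with ranges of 25.02 to 403 and 133 to 490. The line term is shared by all treatments. In CON, CD79A was at 402.9 CPM in MINO-VR and 385.6 in MINO-P, and in BTZ at 55.55 and 147.0. The CON values in the same order were 64.13 and 55.67 for DAPP1 and 331.4 and 263.9 for BTK. For VAV2 they were 148.8 and 70.27, and for NFATC1 218.8 and 172.1.

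The members varied together to a moderate degree. After the line means were removed and mitochondrial genes left out, the 703 pairs of members had a median Pearson correlation of 0.35 over the 56 libraries, from -0.51 to 0.86 (CSK with INPP5D), and 585 pairs were above 0. Libraries shared treatments, depth and composition, so these values describe the table and carry no test. CSK (0.62), SYK (0.57), NIBAN3 (0.55), BTK (0.54) and PLCG2 (0.54) had the highest median correlation with the members, each gene itself included. FYN (-0.15) and BCL10 (-0.08) had a median below 0.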

How the data were processed

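Poly-A RNA-seq was measured in 56 libraries of 4 mantle cell lymphoma cultures, and groups are line and treatment as labelled (37 groups, of which 22 hold 1 library). The submitters' processing notes name Partek and hg38, and the aligner and the use of strand are not given in the sources used here. The deposited values are log2 of CPM plus 1, since undoing the authors' log2 gave nearly the same CPM total in each library. Depth was recovered from the steps of low values, at 5.52 to 21.576 M reads (M, 1e6; median 15.984 M). Only 64.44% to 87.05% of low values came out whole (tolerance 0.03 reads), so no count model was used. Floors cover counting error only.

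Members and gene lists were chosen with earlier results of these data known. Genes with at least 1 CPM in 2 libraries were fitted with limma 3.58.1 (R 4.3.3, trend) on log2(CPM + 1), with treatment, line and library series as terms, and p-values were adjusted over all genes at a threshold of 0.05. Fold changes on this scale understate those of low genes. Further fits covered Z138 alone, JEKO-1 with Z138, and IBR with S63845. Members called in IBR against CON, IBR against S63845 or IBR in Z138 are described in full, together with BTK, SYK, CD79A, CD79B, LYN and PLCG2, and up to 5 called members are named for other comparisons. Exon lengths are unions from GENCODE 29. Within the MINO pair each treatment belongs to a single series. Alternatives covered scaling, filter, pseudocount, series term, weights, averaging, a suffix block, lines and each library left out. The fit was tested on simulated data. Some genes of the wider lists are not reported here.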

Additional observations from a re-analysis of the deposited data

How the results depend on the processing

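Members called are counted here, as reported first. The share of all genes called was recorded for the deposited scale, mitochondrial genes left out and size factors. It was not recorded for the other settings. Their member counts, here and above, thus cannot be set against all genes. For IBR against CON (8) the count was 15 with mitochondrial genes left out, 14 under size factors, 18 with no series term, 24 with array weights, 2 in JEKO-1 and Z138 only and 14 with JEKO-1 left out. For IBR against S63845 (10) it was 26 with array weights, 5 when libraries were averaged by line and treatment, 0 in JEKO-1 and Z138 only, 20 with JEKO-1 left out and 18 with mitochondrial genes and JEKO-1 left out. For IBR_CLF against CLF (16) it was 10 with no filter, 25 with no series term, 27 with array weights, 5 when averaged, 8 with the library-name suffix as a block, 0 in JEKO-1 and Z138 only, 6 with JEKO-1 left out, 7 with mitochondrial genes also left out and 4 with suffix pairs averaged. YM155 against CON (0) had 1 under size factors and 1 with array weights, and IBR_CLF against IBR (0) had 3 with array weights. MINO-VR against MINO-P (5) had 12 with array weights, 2 when averaged and 3 with suffix pairs averaged. With no filter, JEKO-1 minus Z138 had 1 and IBR against S63845 by line had 1 (0 in each as reported). Leaving out 1 library at a time gave 5 (without Z138 CON replicate 1) to 11 for IBR against CON, 7 to 11 for IBR against S63845, 20 to 28 for BTZ, 5 to 25 for IBR_CLF against CLF, 0 to 1 for IBR_CLF against IBR, 27 to 32 between lines, 2 (without MINO-VR BTZ_CLF replicate 1) to 5 for MINO-VR against MINO-P, 0 to 4 (without Z138 IBR replicate 2) in Z138 and 0 to 1 (without JEKO-1 IBR replicate 1) for JEKO-1 minus Z138. CD79A in IBR against CON, not called, turned to 0.02 with JEKO-1 left out, to 0.09 with mitochondrial genes also left out, and ranged from -0.31 to 0.13 over single libraries left out. In Z138 it ranged from -0.27 to 0.38. The cause was not tested. Leaving out JEKO-1, with or without mitochondrial genes, and averaging suffix pairs were chosen after seeing the data. The labels give no replicate numbers, so the block fitted was a single term for the library-name suffix. This term does not join the libraries of a close pair, whereas averaging suffix pairs does. With it IBR against CON had 8, IBR against S63845 had 9 and BTZ against CON had 24. With suffix pairs averaged these had 6, 7 and 20. Left-out libraries that emptied a needed group were not run, and where a group kept 1 library it was assumed to vary like the others. Groups of 1 to 3 libraries limit the precision, and levels near 3 reads (0.139 to 0.5435 CPM) could not be resolved.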
